A study of Rattus norvegicus with 120 samples.

Results

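Cyclosporine A (CsA) at 25 mg/kg per day for 28 doses was compared with its olive oil vehicle in the kidney of the rat. The comparison held 9 of the 120 arrays of the series, the 4 labelled as CsA 25 mg/kg, 28 dose, and the 5 labelled as olive oil, 28 dose, and only these labels chose them. All were male Sprague-Dawley rats, between 5 and 7 weeks old before treatment, dosed intraperitoneally on consecutive days and killed 24 hours after the last dose. Part of each kidney went to histopathology and the rest of both kidneys to RNA, and the title of each array carries its own rat number. Kidney RNA was hybridised to Affymetrix Rat 230 2.0 arrays, which report 31099 probe sets as fluorescence intensities. Further groups served only to show where the CsA effect differed: 5 rats given FK506 (tacrolimus) at 6 mg/kg for 28 doses, 5 rats given CsA at 2.5 mg/kg for 28 doses, and 4 rats given CsA at 25 mg/kg and 4 given olive oil for 14 doses. Rats given 1 or 7 doses (4 per group) and 6 rats given rapamycin at 10 mg/kg for 28 doses are named with single values. No group carried a transgene or a deletion.

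Cyclosporine binds cyclophilins inside the cell, and the complex blocks calcineurin, the calcium-dependent phosphatase that sends NFAT transcription factors to the nucleus. FK506 blocks the same phosphatase through another binding protein, FKBP12. Both drugs protect transplants from T cells, and both can harm the kidney, where tubular injury, interstitial scarring, narrowed arterioles and losses of magnesium and calcium in the urine are known complications. The proximal tubule reclaims most filtered solutes and carries drug transporters and many metabolic enzymes, the thick ascending limb reclaims salt and magnesium, and the distal convoluted tubule adjusts salt, calcium and magnesium under hormonal control.

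Levels are given as deposited intensities, rat by rat in the order of the replicate numbers, and changes as differences of log2(intensity + 16) after quantile normalization, so that a change of 1 stands for a 2-fold difference. Because of the added 16, the changes of dim genes are understated. The threshold for a call was an adjusted p of 0.05 in limma, with Benjamini-Hochberg adjustment over the 10662 genes tested, and only called genes are said to have risen or fallen. The tissue label fitted the data: of 13 kidney genes listed, 12 were on the array and all of these were tested. Their vehicle medians ran from 81.4 for Kl (the anti-ageing co-receptor klotho) to 14368 for Umod (uromodulin, a urinary protein). The 5 vehicle arrays had median intensities of 71.6 to 78.8, and the CsA arrays of 72.6 to 76.4 with 1 exception described next. RNA quality, read as the log2 ratio of the Gapdh probe sets at either end of the transcript, was 0.352 to 0.446 with vehicle and 0.293 to 0.388 with CsA. The same ratio for Actb was 1.84 to 2.09 with vehicle (median 1.9) and 1.63 to 1.89 with CsA (median 1.75). The mean log2 level of the hybridisation controls had a median of 10.7 with vehicle and 10.9 with CsA, without overlap. With that level as a covariate, 160 of the 161 called genes named here kept their call and direction. No label gives batches of dosing, RNA work or scanning. The p-values weigh each change against the spread within groups, in which rats and technique are mixed. A technical difference that followed the groups cannot be told apart from the treatment.

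The exception was CsA replicate 3, which held all 5273 zeros of the table, at 17% of its probe sets. The zeros lay in 1 stretch of probe set numbers, from 1392849 to 1398748, where 92.4% of 5707 probe sets read 0 and the longest unbroken run was 2774. Outside that stretch there was no zero. Probe sets at 0 included ones that were bright elsewhere: of 642 probe sets in the stretch above a log2 level of 8 in the other arrays, 78.8% read 0, and the highest intensity of such a probe set in another rat of the group was 16076. Outside the stretch this array matched the others, with a median log2 difference of -0.01 from the other 3 rats over bright probe sets, and its mean correlation with its own group over genes without zeros was 0.979, against a range of 0.976 to 0.981 in the group. Zeros touched 623 of the 10662 genes tested. With all values kept, 405 of these 623 genes (65%) were called lower and 0 (0%) higher in limma. With the zeros set aside, 43 (6.9%) were called lower and 26 (4.17%) higher, and their median change moved from -0.80 to -0.03. Values for genes with a zero are therefore given without that rat as well, and the labels do not say what produced the zeros.

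**Figure D1:**
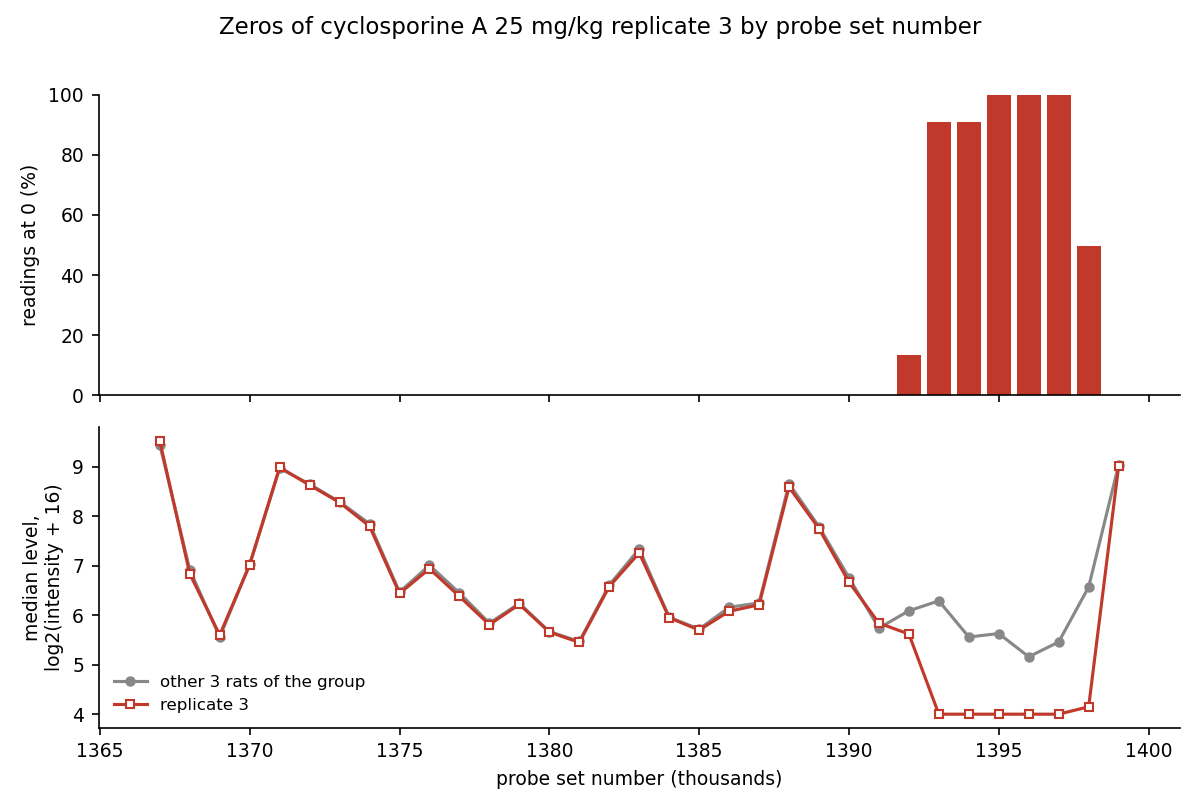
The upper panel shows the percent of readings at 0 in CsA replicate 3 for each 1000 probe set numbers, and the lower panel the median log2(intensity + 16) of the same bins in that rat and in the other 3 rats of its group. The zeros fill 90.8% to 100% of the bins from 1393 to 1397, where replicate 3 drops to the floor of 4. In bin 1398, 49.5% of readings are 0 and replicate 3 stands at 4.15 against 6.57 in the other rats. In bin 1392, 13.3% are 0 and replicate 3 stands at 5.62 against 6.09. Elsewhere the points of replicate 3 lie close to those of the other rats.

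With all 4 CsA rats, 1114 genes rose (10.4%) and 1139 fell (10.7%) against vehicle, in all 21.1% of the 10662 tested. With the zeros set aside, 951 rose (8.92%) and 879 fell (8.24%), and without replicate 3, 853 rose (8%) and 829 fell (7.78%). Counts of list members below are to be read beside these shares. Common to these 3 versions, in the same direction, were 765 genes that rose and 688 that fell. Changes over 2-fold numbered 122 with the zeros set aside, 76 up and 46 down. Every CsA rat lay above every vehicle rat in 948 genes (8.89%) and below in 639 (5.99%), and with the zeros set aside in 864 (8.1%) and 809 (7.59%). Counts with 1 rat left out ran from 816 to 1147 up and from 829 to 1256 down, and with the zeros set aside as well from 603 to 936 up and from 494 to 895 down, the lowest of both without CsA replicate 4. With only the arrays of these 2 groups in the fit, 556 rose and 314 fell, and 103 of the 161 called genes named here kept their call. With the arrays of day 28 alone, 690 fell.

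Genes that mark damaged tubules were among the largest rises. Of 26 genes on the tubular injury list, 18 rose and 1 fell, with a median change of 0.91 against 0.01 over all genes tested. None of them had a zero. Havcr1, which encodes the kidney injury molecule KIM-1 that damaged proximal cells put on their surface, read 56.1, 24.5, 46.1, 57 and 99.8 in the vehicle rats and 931, 598, 2131 and 2748 in the CsA rats. The lowest CsA rat was well above the highest vehicle rat. The change was 4.42 ± 0.52 (SE), with an adjusted p of 2.38e-10. Its vehicle readings are dim, and with an offset of 1 in place of 16 the change was 4.82. Spp1, osteopontin, an adhesive phosphoprotein that tubules secrete after injury, read 3318, 1750, 3422, 4264 and 3441 with vehicle and 11506, 13070, 11859 and 15195 with CsA, a change of 2.20 ± 0.31. Clu, clusterin, a secreted chaperone, read 1008, 965, 1514, 777 and 1344 with vehicle and 5000, 4962, 5120 and 5188 with CsA, a change of 2.28 ± 0.28, while another probe set of the gene changed by 0.70 without a call. The CsA rats lay within a narrow band for Clu, and neither gene's groups overlapped. Lcn2, lipocalin-2 (NGAL), an iron-carrier binding protein measured in urine as an injury marker, read 99.1, 100, 155, 167 and 72.1 with vehicle and 397, 549, 647 and 763 with CsA, a change of 2.21 ± 0.49. Timp1, an inhibitor of matrix metalloproteinases, read 136, 125, 137, 139 and 138 with vehicle and 365, 415, 530 and 583 with CsA, a change of 1.68 ± 0.21. Again every CsA rat exceeded every vehicle rat. Tff3, an epithelial trefoil peptide, was the single list member that fell, by 1.17 on the log2 scale, and without CsA replicate 4, its lowest rat, by 0.67.

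**Figure D2:**
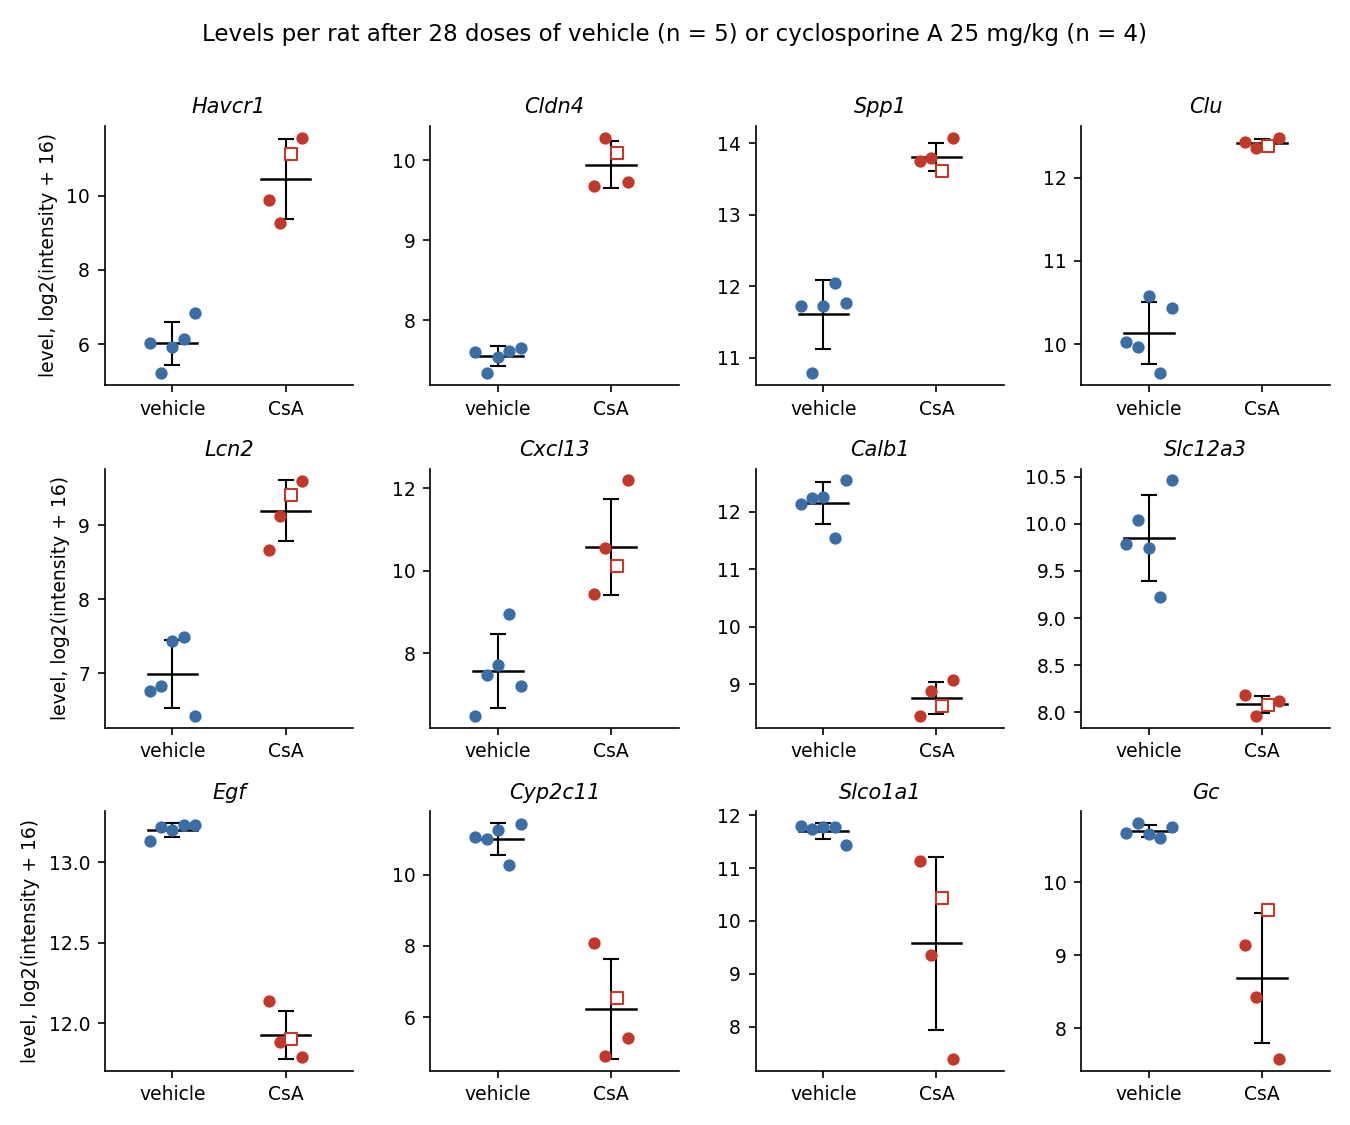
Each panel gives log2(intensity + 16) after quantile normalization for 1 gene in the 5 vehicle rats (blue) and the 4 CsA rats (red, with replicate 3 as an open square), with the group mean as a line and the SD as bars. No panel has overlapping groups, and the CsA rats spread most for Havcr1, Cxcl13, Cyp2c11, Slco1a1 and Gc.

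Further large rises fell to stress-response and epithelial genes. Cldn4, a tight-junction claudin of the distal nephron and collecting duct, read 184, 145, 169, 182 and 188 with vehicle and 800, 1225, 1060 and 832 with CsA, a change of 2.39 ± 0.22 with an adjusted p of 2.85e-15. Adamts1, a secreted protease that cleaves matrix proteoglycans, read 217, 395, 206, 372 and 276 with vehicle and 1261, 1649, 1388 and 1545 with CsA, a change of 2.32 ± 0.30. Atf3, a stress-induced transcription factor, read 39.2, 21.2, 18, 31 and 25.7 with vehicle and 132, 244, 206 and 153 with CsA, a change of 2.26 ± 0.31. None of these genes had overlapping groups. Of 23 immediate early genes, 11 rose and 1 fell. The fall, in Jund, was a zero of replicate 3 and was not called with the zeros set aside. Klf6, a zinc-finger factor induced by injury, read 161, 207, 206, 253 and 204 with vehicle and 548, 991, 800 and 715 with CsA, a change of 1.80 ± 0.20. Myc, the growth-promoting transcription factor, rose by 1.98 ± 0.23, Fos, a subunit of the AP-1 factor, by 1.40 ± 0.36, and Rhob, a small GTPase of fast turnover, by 1.04 ± 0.16. The call of Fos ended with the zeros set aside and CsA replicate 2 left out (1.01). Prcp, a lysosomal carboxypeptidase that cleaves angiotensin, rose by 1.98 ± 0.53. Its vehicle readings were 5.3, 119, 97.8, 106 and 11.2, so that its change depends on dim values, and another probe set of the gene changed by 0.67 without a call. Of 29 cell cycle genes tested, 2 rose and 1 fell (1 and 0 with the zeros set aside). These shares were below the 10.4% and 10.7% over all genes (8.92% and 8.24% with the zeros set aside). Mki67, a marker of dividing cells, had a change of 0.04 ± 0.26 (adjusted p = 0.935 in limma).

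Acute-phase genes, which the liver makes in bulk and injured epithelia also express, rose in 8 of 13 members with a median of 0.94. Fga, the fibrinogen alpha chain, read 254, 209, 238, 171 and 251 with vehicle and 779, 1032, 1518 and 708 with CsA, a change of 2.05 ± 0.43. Socs3, the feedback inhibitor of cytokine signalling, rose by 1.00 ± 0.29 and Cebpd, an acute-phase transcription factor, by 1.14 ± 0.33. With the zeros set aside, the call of Socs3 ended without CsA replicate 2 (0.82) or vehicle replicate 3 (0.71). That of Cebpd then ended without CsA replicate 4 (0.98). Serpina3n, a serine protease inhibitor, read 57.9, 24.6, 61.2, 19 and 23 with vehicle and 102, 134, 811 and 185 with CsA. Its change was 2.26 (adjusted p = 0.0326), and replicate 3 was the highest rat: without it the change was 1.62 and no longer called (adjusted p = 0.209). The call of Serpina3n also ended without CsA replicate 4 (2.35) or without vehicle replicate 2, 4 or 5 (2.17, 2.13 and 2.17). The summed intensity of 12 liver genes was 499 to 2568 with vehicle and 497 to 604 with CsA, and 0 of its 8 members tested was called in limma.

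Macrophage genes rose together. Of 28 macrophage and myeloid genes tested, 21 rose and 1 fell with all values kept, and the median change was 0.81. With the zeros set aside 22 rose, because Fcgr1a, an Fc receptor at 0 in replicate 3, was then called higher. Fcgr3a, the low-affinity Fc receptor CD16, read 232, 192, 157, 312 and 231 with vehicle and 596, 731, 859 and 1831 with CsA, a change of 2.00 ± 0.31. Pilra, an inhibitory receptor of myeloid cells, read 31.4, 48.1, 40.2, 99.2 and 29.6 with vehicle and 238, 223, 217 and 461 with CsA, a change of 2.29 ± 0.36. CsA replicate 4 was the highest rat for both genes and the groups did not overlap. Fcer1g, the signalling chain of Fc receptors, read 908, 725, 868, 1407 and 887 with vehicle and 1712, 1989, 2576 and 3904 with CsA. Adgre1, the macrophage surface receptor F4/80, read 138, 92.4, 126, 178 and 87.2 with vehicle and 199, 269, 217 and 583 with CsA, a change of 1.18 ± 0.31. Without CsA replicate 4 the change of Adgre1 was 0.86 and was not called, and the list then had 15 rises. Gpnmb, a glycoprotein of macrophages and injured tubules, rose by 2.11 ± 0.32. Csf1, the growth factor that macrophages depend on and that tubules secrete, fell by 0.57 on the log2 scale, but another of its probe sets went the other way and was called, so its direction is uncertain.

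The summed intensity of 31 macrophage genes without a zero ran from 17446 to 20737 with vehicle (median 18330) and from 22442 to 34945 with CsA (median 25313), and the highest was replicate 4. In bulk tissue, more cells of a type and more RNA per cell cannot be told apart, and the same holds for fewer cells and less RNA in each result here. The 10 neutrophil and mast cell genes without a zero summed to 171 to 261 with vehicle and 137 to 4408 with CsA. S100a9, a calcium-binding protein that fills neutrophils, read 37.7, 177, 61.6 and 2831 in the CsA rats against 35.8 to 61.5 in the vehicle rats, so the call for a change of 1.92 (adjusted p = 0.0134) rested on replicate 4, without which the change was 0.67. T and NK cell genes (18 without a zero) summed to 685 to 931 with vehicle and 806 to 1020 with CsA, and B and plasma cell genes (8) to 327 to 404 and 263 to 516. Of the 6 T and NK cell genes bright enough to test, 0 rose in limma and 1, with a zero, fell. Red cell genes (6) summed to 3025 to 4417 and 3506 to 7292.

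Some chemokine and complement genes also rose. Of 21 chemokines and cytokines tested, 8 rose and 2 fell, and with the zeros set aside 6 rose and 2 fell. Without CsA replicate 2, or without vehicle replicate 3, 5 rose. Cxcl13, the chemokine that attracts B cells to lymphoid follicles, read 80.9, 163, 192, 473 and 134 with vehicle and 689, 1473, 1076 and 4263 with CsA, a change of 3.01 ± 0.62 with an adjusted p of 0.000162. Every CsA rat was above every vehicle rat, and the 4 CsA rats differed among themselves by more than the vehicle rats did. Ccl19, a chemokine of lymphoid stroma, rose by 1.17 ± 0.26 and Ccl6, a myeloid chemokine, by 1.17 ± 0.22. Of 18 complement genes, 6 rose and 1 fell, and the fall, in Masp2, was a zero of replicate 3. C1qa, a chain of the complement starter C1q that macrophages make, read 302, 250, 340, 323 and 316 with vehicle and 463, 455, 656 and 1322 with CsA, a change of 1.06 ± 0.24. C1qb and C1qc rose by 1.07 ± 0.25 and 1.01 ± 0.23. C1qa, C1qb and C1qc also stand on the macrophage list, so their rises were counted there as well. The call of C1qa ended with the zeros set aside and CsA replicate 4 left out (0.70). Of 17 genes of MHC class II and antigen presentation, 3 rose with all rats and 0 in limma without CsA replicate 4. Ctss, cathepsin S, which trims the invariant chain of MHC class II, rose by 0.69 ± 0.18 with all rats and changed by 0.44 without that rat. Of 24 interferon response genes 3 rose and 2 fell, and 1 rose and 1 fell with the zeros set aside, shares near or below those over all genes.

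**Figure D3:**
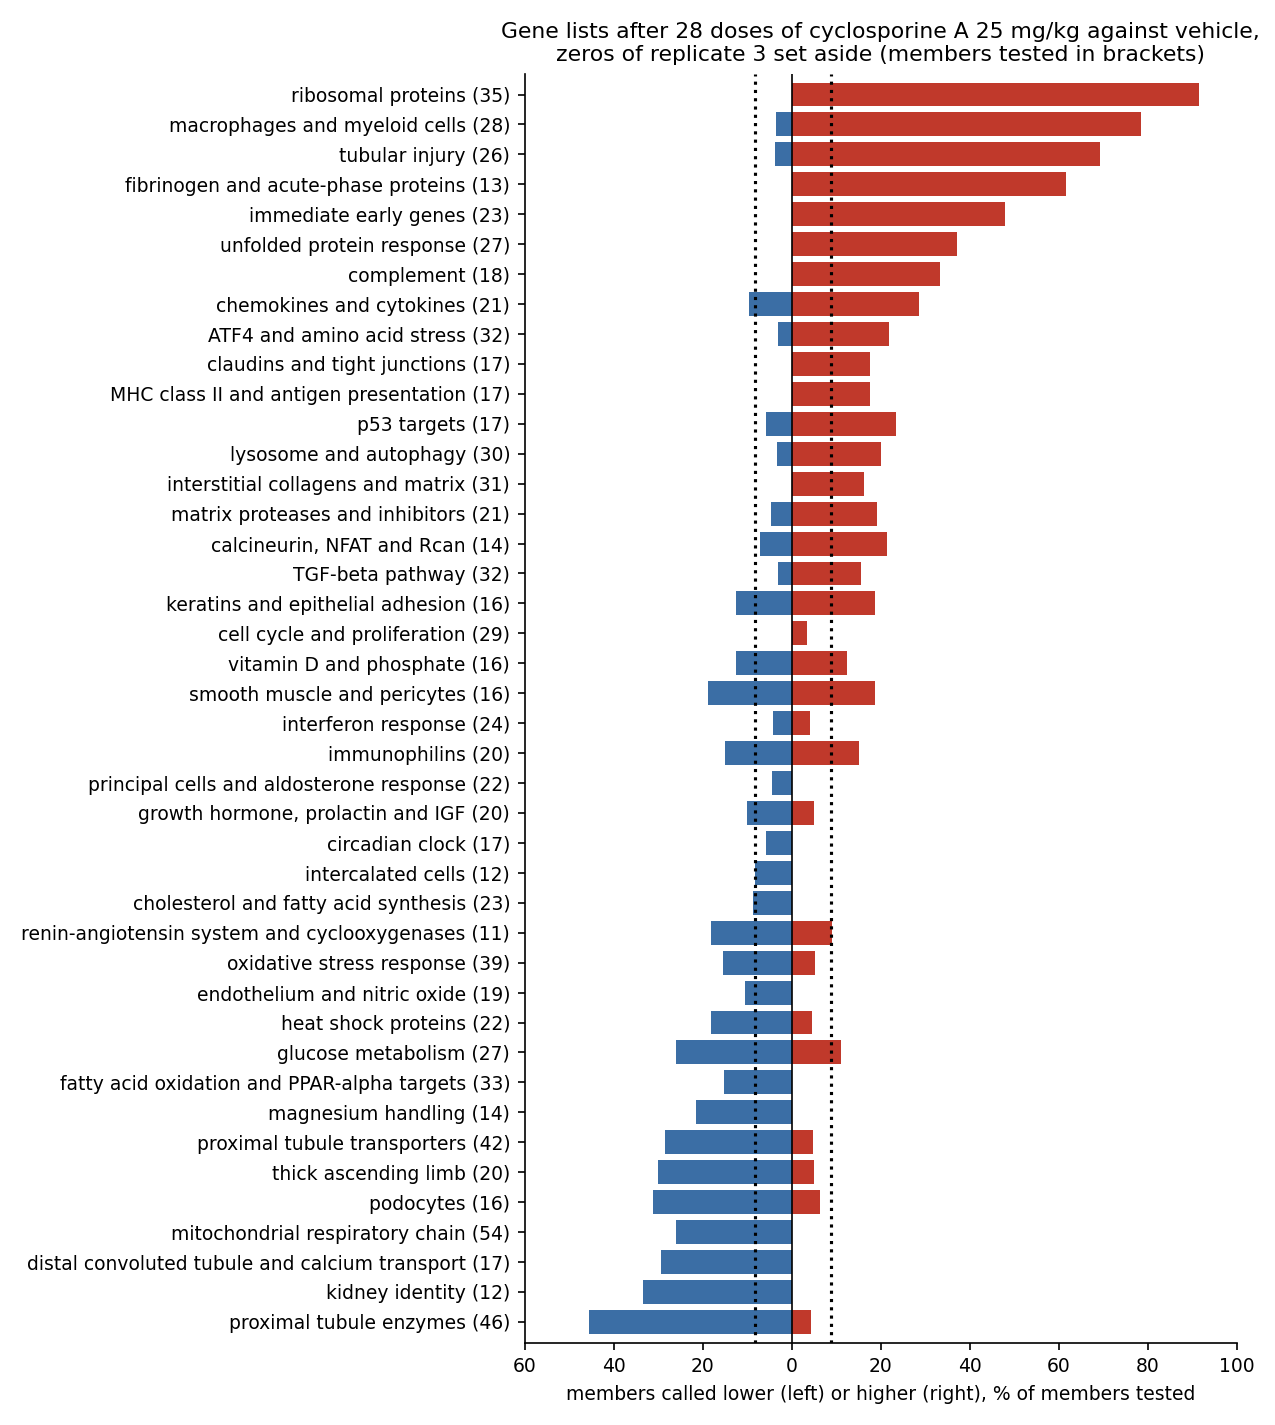
Bars give, for each gene list with at least 10 members tested, the percent of members called lower (blue, left) and higher (red, right) in CsA against vehicle with the zeros of replicate 3 set aside. The dotted lines mark the 8.92% called higher and the 8.24% called lower over all genes tested. Ribosomal, macrophage and tubular injury genes reach farthest to the right and proximal tubule enzymes farthest to the left.

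RNA of the salt and calcium carriers of the distal convoluted tubule fell. Of 17 genes on that list 5 fell and 0 rose in limma, and the same counts held with the zeros set aside. Calb1, calbindin-D28k, the protein that ferries calcium through distal cells, read 4292, 4893, 4950, 3010 and 5979 with vehicle and 338, 466, 362 and 535 with CsA. The change was -3.39 ± 0.23 with an adjusted p of 6.75e-22, and all 4 CsA rats lay in a narrow band far below the vehicle rats. Slc12a3, the thiazide-sensitive sodium chloride cotransporter that defines this segment, read 852, 1023, 835, 576 and 1374 with vehicle and 279, 240, 237 and 281 with CsA, a change of -1.76 ± 0.18. Slc8a1, the sodium-calcium exchanger that moves calcium out on the blood side, read 564, 669, 566, 423 and 811 with vehicle and 235, 253, 167 and 264 with CsA, a change of -1.35 ± 0.18. None of these genes had overlapping groups. Another probe set of Slc8a1 changed by -0.22 without a call. Wnk1, a kinase of which the distal tubule makes a short kidney form that tunes salt transport, read 3167, 4352, 3182, 2875 and 4296 with vehicle and 1714, 1664, 1619 and 2216 with CsA, a change of -0.91 ± 0.13, and 1 of its 4 other probe sets also fell. Emx1, a transcription factor gene on this list, was at 0 in replicate 3 and fell by 1.29 with all rats and by 0.44 without that rat. With the zeros set aside, its call ended without CsA replicate 2 (-0.36), CsA replicate 4 (-0.44) or vehicle replicate 5 (-0.37). Trpv5, the calcium channel of the luminal side, had a change of 0.36 ± 0.19 that was not called (adjusted p = 0.17). Trpm6, the magnesium channel of the same segment, was too dim to test and is not analysed here.

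Some genes of magnesium handling and of the thick ascending limb fell. Egf, epidermal growth factor, which distal cells release and which stimulates magnesium uptake, read 8126, 9691, 9501, 9479 and 9451 with vehicle and 4159, 3504, 3607 and 3163 with CsA, a change of -1.27 ± 0.11 with an adjusted p of 1.58e-16. All CsA rats stood below the lowest vehicle rat. Cnnm2, a membrane protein needed for magnesium balance, fell by 0.60 ± 0.11 and Fxyd2, the gamma subunit of the sodium pump, by 0.21 ± 0.05, and these 3 were the falls among 14 magnesium genes, of which 0 rose in limma and whose median change was 0.00. Of 20 thick ascending limb genes, 7 fell and 1 rose with all values kept, with a median of -0.29. Egf and Wnk1, given above for other lists, are among these falls. Umod read 12820, 13387, 14462, 14374 and 14368 with vehicle and 10258, 9233, 11909 and 10662 with CsA, a change of -0.26 ± 0.06, small beside those above but with no overlap. Tmem72, a kidney membrane protein, fell by 0.83 ± 0.16, and Ptger3, a receptor for prostaglandin E2, was the member that rose, by 0.77 ± 0.20. Bsnd, the chloride channel subunit barttin, was called lower only through the zero of replicate 3. Slc12a1, the furosemide-sensitive cotransporter of this segment, changed by -0.05 ± 0.14 (adjusted p = 0.848), and Aqp2, the water channel of the collecting duct, by 0.03 ± 0.25 (adjusted p = 0.951). Of 22 principal cell genes 2 fell (1 with the zeros set aside) and 0 rose in limma. Among 12 intercalated cell genes 1 fell: Rhcg, an ammonia channel, by 0.78 ± 0.19. The shares that fell in these 2 lists are near or below the 10.7% over all genes (8.24% with the zeros set aside).

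Proximal tubule genes fell in many members, mostly by small amounts. Of 46 proximal enzymes tested, 22 fell and 2 rose, with a median of -0.21, and with the zeros set aside 21 fell and 2 rose. Of 42 proximal transporters, 12 fell and 4 rose, with a median of -0.17. The 4 rises were not stable, since without CsA replicate 2 or 3 there was 0 in limma and without vehicle replicate 1, 2 or 5 there were 2, while without CsA replicate 4 there were 7 falls. Slco1a1, an organic anion transporter of the brush border, read 3460, 3495, 3583, 3521 and 2748 with vehicle and 2174, 640, 1336 and 166 with CsA. The change was -2.13 ± 0.31, and -1.40 without replicate 4, the lowest rat. Slc22a2, the organic cation transporter OCT2, read 5960, 5154, 6742, 5777 and 5217 with vehicle and 4745, 2752, 4206 and 1655 with CsA, a change of -0.81 ± 0.15, and of -0.51 without replicate 4. After normalization the groups of Slc22a2 overlapped. Slc22a5, the carnitine transporter OCTN2, read 3364, 3420, 3416, 3050 and 3601 with vehicle and 2199, 1818, 2121 and 1571 with CsA, a change of -0.75 ± 0.13. Slc22a12, the urate exchanger URAT1, read 3474, 3465, 4180, 3770 and 4433 with vehicle and 2402, 2212, 0 and 1150 with CsA. With all values its change was -2.65, and without the rat at 0 it fell by 1.01 (adjusted p = 0.000204 with the zeros set aside).

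The largest fall of all was in Cyp2c11, the main male-specific cytochrome P450 of the rat, whose expression follows the male rhythm of growth hormone. It read 2088, 2028, 2504, 1217 and 2737 with vehicle and 259, 14.3, 57.3 and 26.1 with CsA, a change of -4.78 ± 0.81 with an adjusted p of 3.76e-06. The CsA rats spread widely among themselves, from 14.3 to 259, and the dimmest of them are near the offset. With an offset of 1 the change of Cyp2c11 was -5.26. Prlr, the prolactin receptor, read 5438, 3155, 2847, 4504 and 3231 with vehicle and 1860, 931, 1380 and 563 with CsA, a change of -1.77 ± 0.35, and both of its other probe sets fell too. Rgn, regucalcin, an enzyme of liver and proximal tubule, read 7244, 7484, 7266, 7607 and 6127 with vehicle and 3959, 1643, 2490 and 1150 with CsA, a change of -1.75 ± 0.20. For Slco1a1, Prlr, Rgn and Pklr (the liver and kidney form of pyruvate kinase, -1.43 ± 0.22), CsA replicate 1 was the highest and replicate 4 the lowest of the CsA rats. The same order of the extremes was seen for Slc22a2 and Slc22a5, and replicate 4 was also the rat with the highest summed macrophage genes. Whether the macrophage content had a part in the falls was not tested.

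Of the 15 largest falls under the naming rule, 10 had a zero in replicate 3, and their sizes shrank without it. Afmid, a formamidase of tryptophan breakdown, fell by 2.30 with all values and by 1.03 without the zero. Sbspon, a secreted matrix protein, fell by 2.00 and by 1.10. Susd2, a membrane protein, fell by 2.20 and by 0.76. Dhrs7l1, a dehydrogenase, read 7716, 8528, 8710, 9288 and 8731 with vehicle and 6890, 5583, 0 and 4292 with CsA, and fell by 2.60 and by 0.54. Hnf4a, the transcription factor that maintains proximal tubule and liver identity, read 5986, 7076, 7531, 6839 and 6968 with vehicle and 5186, 5370, 0 and 5184 with CsA. The 3 rats with a reading lay just below the vehicle range, and Hnf4a fell by 2.31 with all values but by 0.28 without the zero (adjusted p = 0.00114 with the zeros set aside). Hykk, Qng1, C13h1orf115 and Wwp1 shrank from 2.29, 1.93, 1.83 and 1.83 to 0.55, 0.55, 0.31 and 0.57 as falls on the log2 scale. The calls of Hykk (-0.40), C13h1orf115 (-0.27), Susd2 (-0.58) and Dhrs7l1 (-0.37) ended with the zeros set aside and CsA replicate 4 left out. Hgd, homogentisate oxidase, and Id4, an inhibitor of DNA-binding factors, changed by -2.15 and -2.10 with all values and by -0.27 and -0.35, not called, without replicate 3. Eri2, an exonuclease, changed by -2.46 and -1.31, the second not called (adjusted p = 0.0536 with the zeros set aside).

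Since zeros filled that ranking, the largest falls among genes without a zero were also taken, a choice made after the values were seen. Besides those given above they held Cyp8b1, the enzyme that sets the share of cholic acid among bile acids, which fell by 1.73 ± 0.38, Aldh1b1, a mitochondrial aldehyde dehydrogenase, by 1.48 ± 0.34, Hnmt, which inactivates histamine, by 1.37 ± 0.18, Urah, an enzyme of urate breakdown, by 1.35 ± 0.43, and Gtpbp4, a GTPase of ribosome assembly, by 1.50 ± 0.35. The call of Aldh1b1 ended without CsA replicate 2, at -0.88, and the call of Urah ended without CsA replicate 1 (-1.20) or replicate 4 (-1.14). Slc7a12, an amino acid transporter of the kidney, read 2834, 2657, 3222, 4634 and 3769 with vehicle and 1213, 1788, 1124 and 1036 with CsA, a change of -1.37 ± 0.29.

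Of 16 genes of vitamin D and phosphate 2 rose and 2 fell, shares near the 10.4% and 10.7% over all genes. Gc, the plasma carrier of vitamin D, read 1576, 1781, 1596, 1517 and 1703 with vehicle and 554, 337, 751 and 190 with CsA, a change of -2.01 ± 0.43. Cyp27b1, the enzyme that makes active vitamin D in the proximal tubule, read 58.8, 58.6, 36.2, 43.1 and 34.5 with vehicle and 90.7, 65, 98.7 and 199 with CsA, a rise by 1.05 ± 0.34 (adjusted p = 0.0157) that was 0.81 and not called without replicate 4. Slc34a2, a sodium-phosphate cotransporter, read 549, 395, 286, 475 and 486 with vehicle and 1270, 1084, 975 and 1508 with CsA, a rise by 1.45 ± 0.27. Vdr, the vitamin D receptor, changed by -0.48 ± 0.21 without a call (adjusted p = 0.0943), and Kl by 0.04 ± 0.24 (adjusted p = 0.932). The other call on the list was a fall of Slc8a1. Cyp24a1, which degrades active vitamin D, is not analysed here because it was too dim.

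Genes of stress in the endoplasmic reticulum rose by modest amounts. When unfolded proteins gather there, the sensors IRE1, PERK and ATF6 switch on chaperones and folding enzymes, in part through the ER stress response element, and PERK raises ATF4, which acts through amino acid response elements in its targets. The 6 promoters below were picked, after their values were seen, from the genes of these 2 lists that hold a match to one of the elements. Xbp1, Ero1b, Canx, Nupr1 and Chac1 were called higher, and Hspa5, the classical target, was not called. The calls of Ero1b and Chac1 ended in settings that are given below. Nars1, also called higher, and the other genes with a match are not shown. Promoter windows of 300 bases, 250 before and 50 after the start of each gene, came from RefSeq on the build GRCr8, and both strands were searched for the ER stress element, which is CCAAT and CCACG with any 9 bases between them, and for the amino acid element TGATGNAA. Only bases before the start are printed, on the strand of the gene, with the match in capitals.
Xbp1, chr14:84604528-84604606, plus strand: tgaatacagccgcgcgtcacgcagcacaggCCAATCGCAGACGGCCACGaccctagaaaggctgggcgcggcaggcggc
Ero1b, chr17:92941432-92941506, plus strand: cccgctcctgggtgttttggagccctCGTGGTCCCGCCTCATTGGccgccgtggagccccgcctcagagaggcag
Canx, chr10:35158039-35158107, minus strand: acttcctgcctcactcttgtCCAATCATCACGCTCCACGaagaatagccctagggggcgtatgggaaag
Hspa5, chr3:38452943-38453015, plus strand: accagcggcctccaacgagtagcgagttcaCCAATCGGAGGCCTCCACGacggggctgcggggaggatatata
Nupr1, chr1:190645919-190645986, minus strand: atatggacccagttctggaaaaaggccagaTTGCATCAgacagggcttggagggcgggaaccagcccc
Chac1, chr3:126795934-126796001, plus strand: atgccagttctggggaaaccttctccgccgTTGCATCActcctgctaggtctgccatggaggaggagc
In Xbp1, Canx and Hspa5 the ER stress element reads in the direction of the gene, and in Ero1b in reverse. The amino acid element reads in reverse in Nupr1 and Chac1. The ER stress element matched 8 of 21 windows of the unfolded protein list (38.1%), 0 of 30 windows of the ATF4 list, 15 of 8885 windows of the genes tested (0.169%) and 21 of 27457 windows in all (0.0765%). The amino acid element matched 8 of 30 windows of the ATF4 list (26.7%), 1 of 21 of the unfolded protein list (4.76%), 1.88% of the genes tested and 3.82% of all windows. None of the windows shown holds both elements. A match is a description of letters, not a bound site.

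The unfolded protein response list had 27 genes tested, of which 10 were called higher and 0 lower in limma, with a median of 0.22. Manf, a secreted protein that protects stressed cells, read 725, 984, 675, 1072 and 1137 with vehicle and 1325, 1802, 1501 and 1617 with CsA, a rise by 0.80 ± 0.15. Dnajb9, a co-chaperone that restrains IRE1, read 611, 712, 851, 922 and 746 with vehicle and 1090, 1634, 1043 and 1487 with CsA, a rise by 0.75 ± 0.15. Sec61b, a subunit of the channel through which proteins enter the endoplasmic reticulum, read 1849, 1277, 1214, 1333 and 1269 with vehicle and 1881, 2247, 1858 and 2595 with CsA, a rise by 0.67 ± 0.11. Vehicle replicate 1 was the highest vehicle rat for Sec61b and lay at the lower edge of the CsA rats. Ero1b, which supplies oxidising power for disulphide bonds, rose by 0.77 ± 0.21, Xbp1, the transcription factor activated by IRE1, by 0.55, and Canx, the lectin chaperone calnexin, by 0.33. These 3 are the called genes among the 8 whose promoter window held the ER stress element, beside 10 of the 27 on the whole list. The shares called with the element and on the whole list are alike. The call of Ero1b ended with the zeros set aside and CsA replicate 4 left out (0.66, adjusted p = 0.0501 in limma). Hspa5, the chaperone BiP and the classical target of that element, changed by 0.34 ± 0.14 and missed the threshold (adjusted p = 0.0577).

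Of 32 genes of the ATF4 and amino acid stress list, 8 rose and 1 fell, with a median of 0.21. Asns, asparagine synthetase, a target of ATF4, read 98.3, 93.3, 121, 136 and 105 with vehicle and 277, 331, 320 and 344 with CsA, a rise by 1.42 ± 0.18 with an adjusted p of 3.2e-09. Nupr1, a small stress-response chromatin protein, read 307, 112, 349, 272 and 185 with vehicle and 805, 877, 647 and 728 with CsA, a rise by 1.68 ± 0.31. Neither gene's groups overlapped. Atf4 itself rose by 0.61 ± 0.10. Ddit3, the factor CHOP that PERK signalling raises in lasting stress, changed by 0.11 ± 0.10 without a call (adjusted p = 0.477). Of the 8 genes with the amino acid element, Nupr1, Chac1 (a glutathione-degrading enzyme, 0.47) and Nars1 (asparaginyl-tRNA synthetase, 0.29) were called. On the whole list 8 of 32 were called higher. The call of Chac1 ended with the zeros set aside and without CsA replicate 2 or 3 or vehicle replicate 1, 2 or 5. Its value without replicate 3 was 0.33.

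Some of these stress genes differed between CsA and FK506, though not under every setting. After 28 doses 215 genes were higher (2.02%) and 393 lower (3.69%) with CsA at 25 mg/kg than with FK506 at 6 mg/kg, in all 5.7%, and 299 of those lower had a zero in replicate 3. With the zeros set aside 103 were higher (0.966%) and 64 lower (0.6%), in all 1.57%, and without replicate 3 1.42% and 0.816% of genes, in all 2.23%. The doses are those of the study and are not matched in strength. Of the 27 unfolded protein genes, 5 were higher with CsA and 0 lower in limma, with a median difference of 0.22 against 0.00 over all genes, and the counts of 5 and 0 also held with the zeros set aside and without replicate 3. The 5 were Dnajb9 (0.77 ± 0.15), Sec61b (0.73 ± 0.11), Manf (0.57 ± 0.15), Ddost, a subunit of the glycosylating enzyme complex (0.54 ± 0.12), and Pdia6, a disulphide isomerase (0.47 ± 0.08), the last pair named after their values were seen. On the log2 scale Dnajb9 stood at 9.62 ± 0.22 (SD) with vehicle, 9.60 ± 0.19 with FK506 and 10.37 ± 0.34 with CsA. Sec61b stood at 10.45 ± 0.26, 10.39 ± 0.19 and 11.12 ± 0.28. For these 2 genes every CsA rat lay above every FK506 rat. Fkbp11, an immunophilin-type isomerase of the endoplasmic reticulum, stood at 6.86 ± 0.13, 6.75 ± 0.25 and 7.62 ± 0.15 and differed by 0.87 ± 0.13 (adjusted p = 2.96e-06). Asns stood at 6.94 ± 0.22, 7.58 ± 0.46 and 8.36 ± 0.13 and differed by 0.78 ± 0.18. Of the ATF4 list 4 genes were higher with CsA than with FK506 with all values, Asns, Psph, Chac1 and Nars1, and Asns alone without replicate 3.

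**Figure D4:**
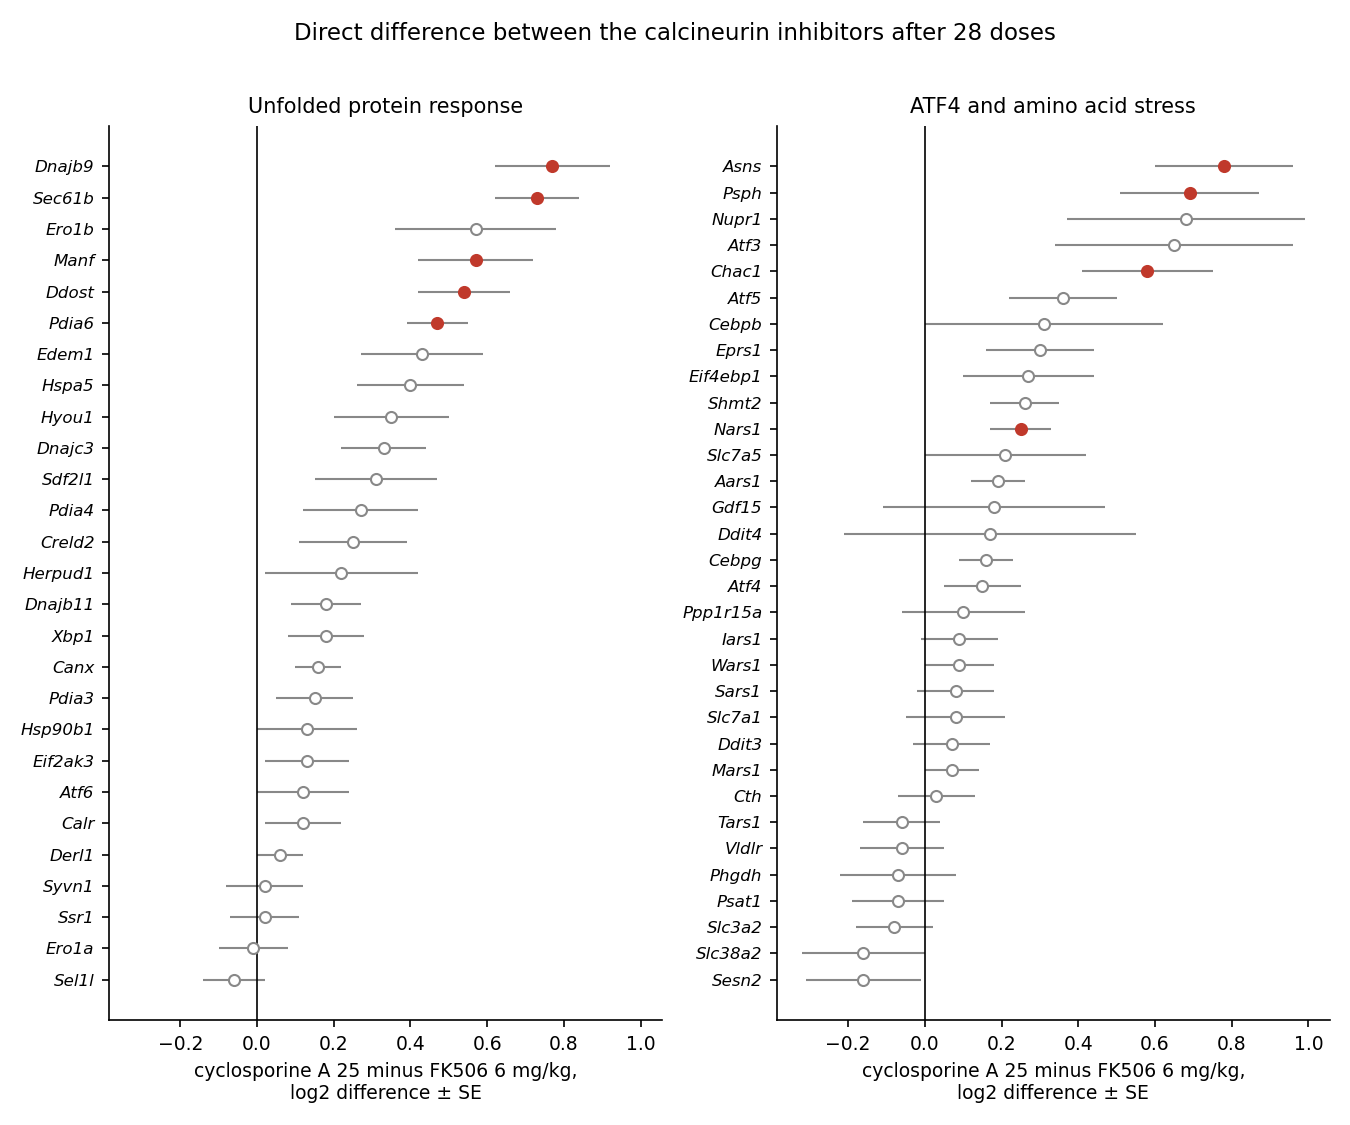
Each point is the log2 difference of CsA 25 mg/kg minus FK506 6 mg/kg after 28 doses for 1 member of the unfolded protein list (left) or the ATF4 list (right), with the SE as a bar, filled in red where called with all values kept. In the left panel 25 of 27 points lie above 0 and 5 are filled, and in the right panel 25 of 32 lie above 0 and 4 are filled.

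Cxcl13 and Fcgr3a were also higher with CsA than with FK506, by 2.41 ± 0.62 and 1.36 ± 0.31, while 2 of the 28 macrophage genes differed with all values and 1 with the zeros set aside. Without CsA replicate 4, the difference of Cxcl13 was 1.87 and no longer called (adjusted p = 0.0846). Cldn4 was higher by 0.72 ± 0.22, a call that ended with the zeros set aside (adjusted p = 0.0661). Slc7a12 stood at 11.71 ± 0.33 with vehicle, 11.91 ± 0.60 with FK506 and 10.34 ± 0.36 with CsA and was lower with CsA by 1.58 ± 0.29. Susd2 was lower by 2.32 with all values and by 0.88 with the zeros set aside. Among genes outside the naming rule, picked after their values were seen, Slc51a, a subunit of the bile acid exporter OST, was higher by 1.93, the muscle protein gene Mybpc2 by 1.09 and the transcription factor Runx1 by 0.75. Between the drugs 0 of the 26 tubular injury genes differed in limma. In the distal convoluted tubule list 1 of 17 genes was lower with CsA with all values and 0 with the zeros set aside. Across all genes 5.7% differed with all values and 1.57% with the zeros set aside. The counts of these lists and of the macrophage list are near those shares. Against the same vehicle rats FK506 changed Havcr1 by 3.65, Spp1 by 1.91, Clu by 2.02, Calb1 by -3.04, Slc12a3 by -1.72 and Egf by -1.36, all called. The direct differences were 0.78 ± 0.52 for Havcr1 and -0.35 ± 0.23 for Calb1, neither called, and a missed threshold does not show that the drugs act alike. With the spread estimated from these groups alone, 0 genes differed in limma in either direction, where 571 were higher and 299 lower at an unadjusted p under 0.05. With the arrays of day 28 alone, 50 were higher and 11 lower, among them Dnajb9, Sec61b, Fkbp11 and Slc7a12 but not Manf (adjusted p = 0.135), Asns (0.0517), Susd2 (0.0796), Cxcl13 (0.205) or Fcgr3a (0.129). The hybridisation controls stood at 7.5 to 10.4 in the FK506 arrays and 10.8 to 11 in the CsA arrays, without overlap. With their level as a covariate, 40 were higher and 57 lower, and the calls of Dnajb9 (adjusted p = 0.0513), Manf (0.18) and Fcgr3a (0.0691) ended.

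A minority of matrix genes rose, and the main fibrillar collagens were not called. Of 31 genes for interstitial collagens and matrix, 7 rose and 0 fell in limma with all values, 5 rose with the zeros set aside, and 4 rose without CsA replicate 3, without CsA replicate 4 or without vehicle replicate 2. Fn1, fibronectin, read 695, 562, 762, 709 and 661 with vehicle and 1245, 1110, 1146 and 1659 with CsA, a rise by 0.91 ± 0.19. Dcn, the collagen-binding proteoglycan decorin, rose by 0.77 ± 0.20 and Loxl1, which helps to cross-link elastin, by 0.88 ± 0.21. Vcan, the proteoglycan versican, rose by 1.21 ± 0.37 from vehicle readings of 7.6, 37, 4.71, 8.1 and 57.3 to 75.8, 46.6, 32.1 and 80.6. Its groups overlapped. With the zeros set aside, its call ended without CsA replicate 1 or 4 or vehicle replicate 1, 3 or 4, where the change was 0.94 to 0.98 and the adjusted p in limma 0.0725 to 0.108. Col1a1, the main fibrillar collagen gene, read 324, 270, 228, 285 and 478 with vehicle and 298, 259, 358 and 428 with CsA, a change of 0.08 ± 0.28, and Col3a1, its partner in loose matrix, changed by 0.23 ± 0.23. In the TGF-beta pathway, which drives scarring, 6 of 32 genes rose and 1 fell, and 5 rose and 1 fell with the zeros set aside. Over all genes tested 10.4% rose and 10.7% fell, and 8.92% and 8.24% with the zeros set aside. Tgfb1, its best known ligand, read 52.1, 94.9, 89.4, 145 and 161 with vehicle and 200, 157, 160 and 232 with CsA, a rise by 0.80 ± 0.19 with groups that overlapped. Inhbb, a subunit of activin B, rose by 1.26 ± 0.32 and Bmp4, a related ligand with opposing actions in many settings, fell by 0.70 ± 0.12. Ccn2, connective tissue growth factor, changed by 0.12 ± 0.30 without a call (adjusted p = 0.839).

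Of 16 podocyte genes 4 fell (5 with the zeros set aside) and 1 rose, with a median of -0.12. Of 19 endothelial genes 3 fell and 0 rose in limma, with a median of -0.10, and 2 fell with the zeros set aside, a share near the 8.24% of all genes that fell in that version. Col4a4, a chain of the glomerular basement membrane, fell by 0.73 ± 0.18, and Podxl, podocalyxin, which coats podocytes, by 0.41 ± 0.12 from readings of 935, 846, 806, 654 and 838 to 619, 575, 592 and 670. Vegfa, the growth factor that podocytes supply to glomerular vessels, fell by 0.25 ± 0.08, and Kdr, its main receptor, read 1278, 1416, 1266, 1120 and 1412 with vehicle and 1073, 897, 989 and 989 with CsA, a change of -0.40 ± 0.10. Of 16 smooth muscle and pericyte genes 4 rose and 2 fell, or 3 and 3 with the zeros set aside, with a median of 0.07. Beside these podocyte and smooth muscle counts, 10.4% of all genes rose and 10.7% fell, or 8.92% and 8.24% with the zeros set aside. Acta2, smooth muscle actin, was among the falls, by 0.47 ± 0.15. Agt, angiotensinogen, read 371, 326, 361, 322 and 320 with vehicle and 394, 155, 277 and 115 with CsA, and its change of -0.68 (adjusted p = 0.0168) shrank to -0.39 and was not called without replicate 4, and the call also ended without replicate 2 (-0.54). Ptgs2, the inducible cyclooxygenase of the macula densa, read 43.7, 220, 137, 104 and 39.7 with vehicle and 58.9, 30, 38.7 and 41.7 with CsA, a change of -0.77 without a call (adjusted p = 0.0908).

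Ribosomal protein genes rose in nearly every member by a small and even amount. Of 35 tested, 32 rose and 0 fell in limma, with a median of 0.33, and 24 rose with a median of 0.26 without quantile normalization. Rpl11 read 5078, 5247, 5572, 5830 and 5649 with vehicle and 6287, 7028, 6652 and 8450 with CsA, a rise by 0.45 ± 0.05. Rps15a, from the small subunit, rose by 0.50 ± 0.08. A minority of mitochondrial respiratory chain genes fell: of 54 tested, 14 fell and 0 rose in limma, with a median of -0.06. Over all genes 10.7% fell. Without CsA replicate 2 or without CsA replicate 4, 8 of the chain genes fell. Without replicate 4 their median was -0.03, 21 of the 54 changes were above 0, and 945 of the 10662 genes tested fell. Cox5a, a subunit of cytochrome oxidase, fell by 0.62 ± 0.15, Ndufb7, of complex I, by 0.36 ± 0.08, and Sdhc, of complex II, by 0.25 ± 0.05. In fatty acid oxidation 6 of 33 genes fell and 0 rose in limma, and 5 fell with the zeros set aside. Over all genes 10.7% fell, and 8.24% with the zeros set aside. Among the falls was Acadm, a dehydrogenase for medium-chain acids, by 0.44 ± 0.06. Acox2, a peroxisomal oxidase, fell by 1.17 ± 0.29.

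Genes for calcineurin, the NFAT family and their regulators changed by little. Of 14 tested, 3 rose and 2 fell with all values, and 1 rose and 1 fell without CsA replicate 4. Over all genes 10.4% rose and 10.7% fell with all values. Nfatc1, an NFAT factor whose gene NFAT can itself drive, rose by 0.62 ± 0.19. With the zeros set aside, its call ended without CsA replicate 4 (0.50, adjusted p = 0.102 in limma) and without vehicle replicate 3 (0.52, adjusted p = 0.0579). Nfat5, the factor that answers to salt, rose by 0.43 ± 0.14, a call that ended without CsA replicate 4 (0.33) or without vehicle replicate 2 (0.34). Ppp3ca, the main catalytic subunit of calcineurin, rose by 0.20 ± 0.06 and changed by 0.17, not called, without CsA replicate 4. Rcan1, an inhibitor of calcineurin that NFAT induces, changed by -0.31 ± 0.17 without a call (adjusted p = 0.19). Abcb1a, a drug efflux pump that exports CsA, changed by -0.09 ± 0.28 (adjusted p = 0.873). Hmox1, haem oxygenase, read 33.6, 31, 979, 104 and 39.1 with vehicle and 329, 83, 912 and 70.4 with CsA, a spread within both groups that left a change of 1.11 ± 0.81 uncalled (adjusted p = 0.361). Cdkn1a, the cell cycle brake p21, changed by 0.11 ± 0.29 (adjusted p = 0.835). The summed intensity of 10 skeletal muscle genes was 7403 to 8221 with vehicle and 4148 to 6022 with CsA, of which Myh1, a fast myosin, fell by 0.57 ± 0.10. Its part in other changes was not tested.

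At the lower dose no gene was called against vehicle. With CsA at 2.5 mg/kg for 28 doses, 0 genes rose and 0 fell against vehicle in limma, with 230 higher and 195 lower at an unadjusted p under 0.05. The 2 doses of CsA differed in 932 genes higher (8.74%) and 1032 lower (9.68%) at 25 mg/kg, in all 18.4%, and in 772 (7.24%) and 718 (6.73%), in all 14%, with the zeros set aside. With only the groups compared in the fit the counts were 281 and 131, and with the arrays of day 28 alone 494 were lower. The lower dose and vehicle serve as separate controls for the same 4 rats at 25 mg/kg. Havcr1 stood at 5.70 ± 0.29 (SD) at the lower dose and 10.45 ± 1.08 at the higher, a difference of 4.75 (adjusted p = 1.63e-11). Calb1 stood at 11.71 ± 0.49 and 8.76 ± 0.28, a difference of -2.96. Of the 26 tubular injury genes 18 were higher and 1 lower at 25 mg/kg, and of the 27 unfolded protein genes 15 were higher and 0 lower in limma, 14 with the zeros set aside. The difference in Cyp2c11 was -2.88 (adjusted p = 0.00605). At 2.5 mg/kg its change from vehicle was -1.89 without a call.

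Few genes differed in their response to CsA at 25 mg/kg between 14 and 28 doses. The difference between the 2 effects, each against the vehicle of its own day, was called higher in 1 gene (0.00938%) and lower in 5 (0.0469%), in all 0.0563%, and with the zeros set aside in 1 and 2 (0.0188%), in all 0.0281%. The 3 that held were Cox5a (-1.11 ± 0.23), Eif4ebp2, a repressor of translation (0.67 ± 0.14), and Synj1, a lipid phosphatase (-0.57 ± 0.12), the last pair named after their values were seen. Cox5a changed by 0.49 after 14 doses and fell by 0.62 after 28. Without CsA replicate 1 of the 28-dose group 39 genes were higher and 248 lower, 216 of these with a zero, without replicate 2 there were 22 and 210 (194 with a zero), and without replicate 4 there were 15 and 203 (195 with a zero), so most of the genes then called lower held a zero of replicate 3. Havcr1 changed by -0.87, 0.71, 4.15 and 4.42 after 1, 7, 14 and 28 doses, the last 2 called. Spp1 (1.76), Clu (1.69), Lcn2 (2.61), Cldn4 (1.36) and Atf3 (2.19) were also called after 14 doses and not after 7. Calb1 had fallen by 2.33 after 7 doses and by 2.60 after 14, Slc12a3 by 1.96 and by 1.27, and Slc8a1 by 0.92 and by 1.22. Cxcl13 had risen by 3.74 after 7 doses and 3.38 after 14, Fcgr3a by 2.25 and 2.64, and Pilra by 2.57 and 2.06. Cyp2c11 changed by 0.31 after 7 doses and fell by 3.12 after 14. Gc (-0.40 and -1.02), Slco1a1 (-0.19 and -0.53) and Slc22a2 (-0.09 and -0.41) were not called after 7 or 14 doses, and their change of effect from 14 to 28 doses was not called either. Whether the 7-dose and 28-dose effects differ was not tested. The Gapdh ratio that reads RNA quality was 0.545 to 0.941 in the 7-dose vehicle rats and 0.359 to 0.489 in the 7-dose CsA rats. After 14 doses it was 0.369 to 0.428 with vehicle and 0.276 to 0.334 with CsA, again without overlap. The part of RNA quality in the changes after 7 and 14 doses was not tested.

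**Figure D5:**
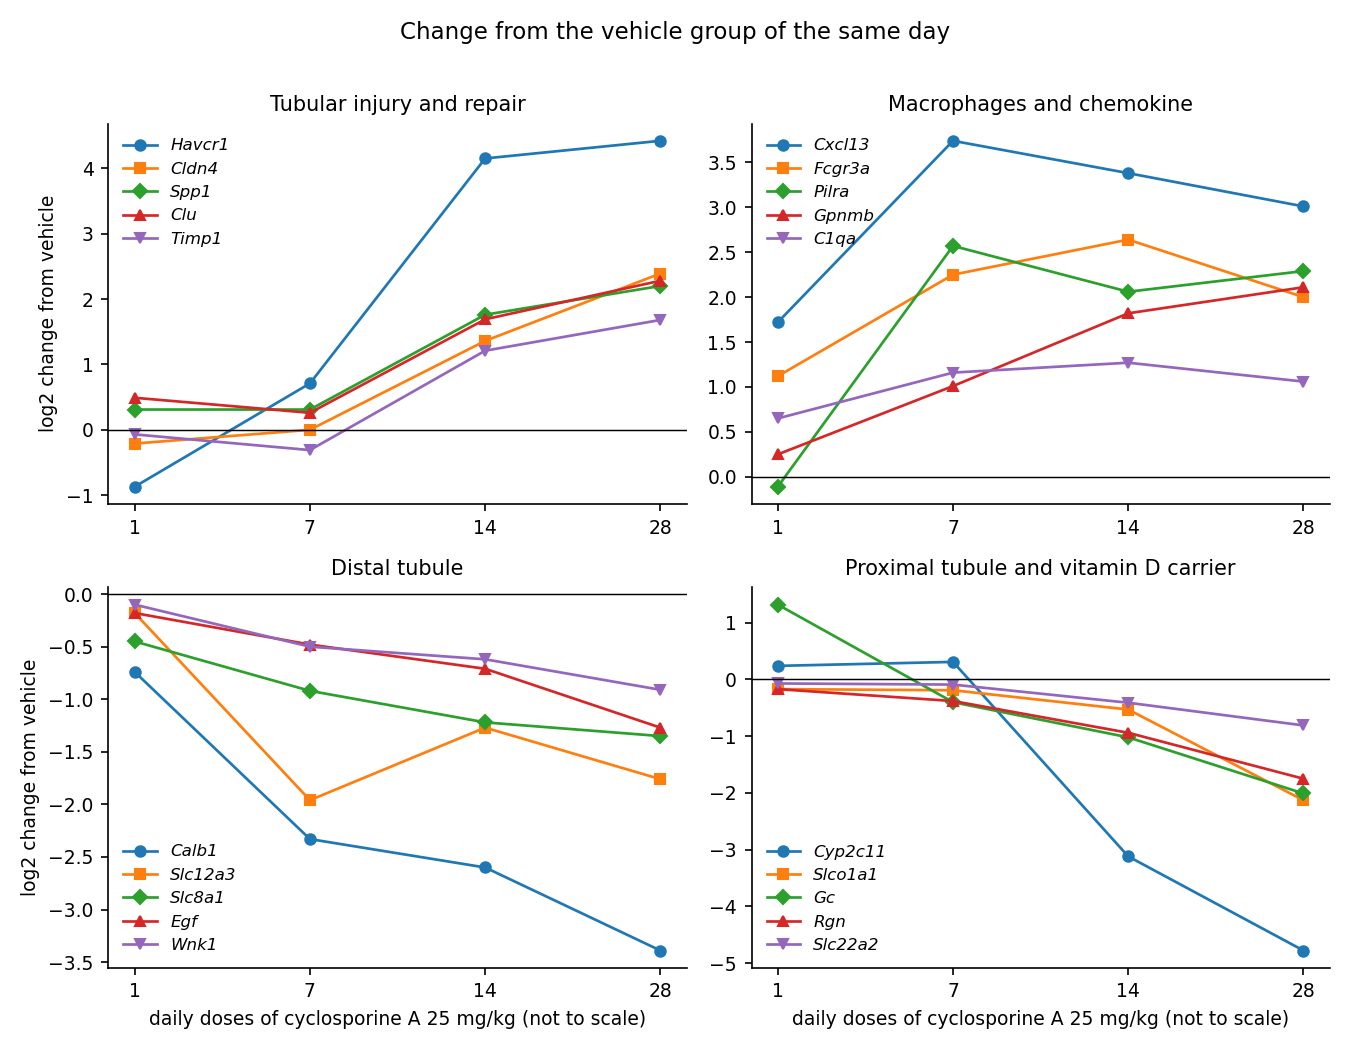
Lines give the log2 change of CsA 25 mg/kg from the vehicle group of the same day after 1, 7, 14 and 28 doses (4 to 5 rats per group) for genes in 4 panels. Calb1, Slc12a3, Cxcl13, Fcgr3a and Pilra are called after 7 doses, whereas Havcr1, Spp1, Clu, Cldn4, Timp1 and Cyp2c11 are called after 14 doses and not after 7. The Gapdh ratio that reads RNA quality differed between the vehicle and CsA arrays at 7 and 14 doses, as given in the text.

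Several of the falls were also seen with other drugs against the same vehicle rats. Cyp2c11 changed by -4.33 with FK506 at 6 mg/kg and by -4.26 with rapamycin at 10 mg/kg. The falls of Calb1, Slc12a3 and Egf with FK506 are given above. Calb1 changed by 0.02 with rapamycin and Havcr1 by 0.91, neither called. Prlr changed by -1.25 and Pklr by -1.26 with rapamycin, both called. These comparisons share the vehicle arrays, so their values are set side by side and not combined.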

How the data were processed

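Total RNA of rat kidney was labelled by a one-cycle protocol and scanned on Affymetrix arrays, per the labels' protocols. The authors deposited 1 table of intensities on a linear scale, read with the GeneChip Operating Software per the labels. How probes were summarised is not given in the sources used here. The mean of each array after trimming is 250, except 233 in CsA 25 mg/kg replicate 3, so the deposited values had been scaled. From them log2(intensity + 16) was taken and quantile normalized over 120 arrays. Each of 14217 genes was represented by its brightest probe set on average, and the dimmest 25% (3555 genes) were left out. Gene names came from the platform annotation, in which 20826 of 31099 probe sets carried 1 symbol, 436 several and 9780 none. One mean per group was fitted over 28 groups with limma 3.58.1 in R 4.3.3 (92 residual and 2.96 prior degrees of freedom), two-sided, and 4 comparisons were made. Zeros were kept as values and, as an alternative added after seeing the data, set aside: genes with a zero were normalized without that rat and left missing in it. Those settings, and counts of list members with 1 rat left out, were chosen after seeing the data. The fit was tested on simulated data. Precision is limited by how many rats each group held.

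Named genes were the 15 largest rises and the 15 largest falls called with and without replicate 3 and outside the vehicle range in every CsA rat, up to 4 members of each described list of 51, genes resting on replicate 3, and 38 kidney genes, 33 of them measured. Genes named for a zero, for a promoter match or for a difference from FK506 or from 14 doses were chosen after their values were seen. The members and lists were chosen with earlier results of these data known. Where several probe sets measure a gene, only the kept one was counted. Alternatives covered normalization, offset, filter, probe sets, trend, arrays in the fit, weights, covariates, zeros and single rats.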

Additional observations from a re-analysis of the deposited data

Results flagged for a closer look

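Single rats stood apart from the other rats of their group by Dixon's criterion in 17 of 339 groups of named genes (5.01%), where chance flags about 1 in 20 groups. Levels are log2(intensity + 16) after normalization. With CsA, replicate 4 stood apart in Col4a4 (6.25), Ctsd (12.41), Pilra (8.86), Rps15a (12.89) and Wnk1 (11.21), and replicate 3 in Cox5a (7.73), Slc12a1 (11.64) and Vegfa (10.03). With vehicle, replicate 1 stood apart in Psap (10.84) and Sec61b (10.90), replicate 2 in Kl (5.94), Rpl6 (12.09) and Spp1 (10.78), replicate 3 in Tmem72 (7.71), replicate 4 in C1qc (8.41) and replicate 5 in C13h1orf115 (10.82) and Slco1a1 (11.44). The effect of CsA on Cox5a differed between 14 and 28 doses by -1.11 in the test of that difference.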

How the results depend on the processing

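Of 161 called genes named here, 103 kept their call with only the groups compared in the fit, 142 with only the days compared and 149 or more under each other alternative that kept all rats. Leaving out 1 rat kept 134 or more, the fewest without CsA replicate 4, and 117 or more with the zeros set aside as well. Counts that moved by over 1.5 times follow. With only the groups compared, CsA 25 mg/kg against vehicle gave 556 up and 314 down, against FK506 0 and 0, against the lower dose 281 and 131, and the change of effect 0 and 0. With only the days compared, down against vehicle was 690, FK506 50 and 11, down against the lower dose 494, and the change of effect 0 and 0. With zeros as missing, up against vehicle was 638, FK506 59 and 198, up against the lower dose 516 and up in the change of effect 0. With zeros set aside, FK506 gave 103 and 64, and down in the change of effect 2. The hybridisation controls as covariate gave 40 and 57 for FK506 and 3 down in the change of effect. Array weights gave 194 down for FK506. All probe sets gave 639 down for FK506 and 2 up and 8 down in the change of effect. No quantile normalization, an offset of 1 or no filter gave 3 down in the change of effect. With 1 rat left out the counts ran from 816 to 1147 up and 829 to 1256 down against vehicle (603 to 936 and 494 to 895 with the zeros set aside), 125 to 311 and 87 to 553 for FK506, 638 to 977 and 663 to 1131 for the lower dose, and 0 to 39 and 0 to 248 for the change of effect. In limma the counts of 0 in the change of effect stood beside 484 up and 259 down at an unadjusted p under 0.05 with only the groups compared, 466 and 491 with only the days compared, and 197 up with zeros as missing. The causes of these moves were not tested.

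Uncalled genes near 0 changed sign: Aqp2 (-0.07 without quantile normalization, -0.03 with zeros as missing), Kl (-0.04, -0.10 and, zeros set aside, -0.04), Mki67 (-0.13, -0.10 and -0.05), Col1a1 (-0.09 with weights, -0.01 with zeros as missing) and Slc12a1 (0.14 with weights). With 1 rat left out they ran from -0.14 to 0.28 for Aqp2, -0.18 to 0.10 for Kl, -0.19 to 0.18 for Mki67, -0.05 to 0.23 for Col1a1, -0.14 to 0.14 for Slc12a1, -0.39 to 0.38 for Abcb1a, -0.04 to 0.25 for Ccn2, -0.07 to 0.29 for Cdkn1a and -0.00 to 0.17 for Ddit3. Where the zeros are set aside, the CsA values of genes with a zero in replicate 3 rest on the other 3 rats. No paired analysis was possible because the replicate numbers were given in accession order and pair no rats.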
